A study of Mus musculus with 90 samples.

Results

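RNA polymerase II (Pol II) and the general transcription factors are the machinery that every protein-coding gene uses to be transcribed, and their transcripts were followed here from the mature oocyte to the 8-cell embryo. Of 52 genes listed by symbol, 51 were found among the 24422 genes of the count table, and all 51 had enough counts to be tested with 16511 genes in all. The remaining symbol, Taf4a, is listed in the table as Taf4, a name that RefSeq pairs with it, and it was not counted as a member. The genes comprise the 12 Pol II subunits with the associated factor Polr2m, 3 genes of the TATA-binding protein (TBP) family, 11 TBP-associated factors (TAFs), the factors TFIIA, TFIIB, TFIIE, TFIIF and TFIIH with its kinase, the elongation kinase P-TEFb, and 4 elongation factors.

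Single cells or embryos of CD-1 mice were sequenced from 3 stages: MII oocytes (mature oocytes arrested in metaphase of the second meiotic division), 2c (2-cell) and 8c (8-cell) embryos. Females 1 to 3 months old, either wild type (WT) or Plag1 knockout (KO), were superovulated with 5 IU of pregnant mare serum gonadotropin and 5 IU of human chorionic gonadotropin (hCG), and no other treatment was given. Unmated females gave oocytes 21 to 23 h after hCG. Both kinds of female were mated to WT studs, and their embryos were cultured and picked at 45 to 47 h (2c) and 71 to 73 h (8c) after fertilisation, so matPlag1KO embryos lacked maternal Plag1 and carried a WT allele from the father. Plag1 encodes a zinc finger transcription factor. Each library held 1 oocyte or embryo, collected over 3 occasions and prepared in 2 plates (A and B) that both held every stage and genotype. After the exclusion of 12 shallow libraries of 90, there were 16 WT and 14 KO oocytes, 11 WT and 11 matPlag1KO 2c embryos, and 15 WT and 11 matPlag1KO 8c embryos. The labels do not name the donor females, so the p-values measure the spread between single oocytes or embryos, some of which may share a mother.

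Pol II opens transcription at a promoter only after a pre-initiation complex has formed: TFIID, which is TBP with its TAFs, binds the core promoter, TFIIA and TFIIB stabilise it, TFIIF brings in the polymerase, and TFIIE and TFIIH open the DNA. The kinase of TFIIH phosphorylates the tail of the largest subunit, and P-TEFb then releases the polymerase into elongation. In the mouse, transcription stops in the fully grown oocyte before maturation and resumes around the late 1-cell and 2-cell stages. The machinery that starts embryonic transcription is thus at first supplied by the mother. The oocyte also has its own relative of TBP, encoded by Tbpl2 (also called Trf3).

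Sequences upstream of the genes on which the comparisons below turn are shown to let their promoters be compared: Polr2h and Gtf2h5, which differed between the genotypes at 2c, and Tbp and Tbpl2, whose transcripts took different courses. Each is the 250 bases before the outermost RefSeq start site, in GRCm38.p6 coordinates, written 5′ to 3′ in the direction of the gene. In mm9, the build of the counts, these genes lie at chr16:20717899-20722338 (Polr2h), chr17:6079828-6085485 (Gtf2h5), chr17:15636852-15654391 (Tbp) and chr2:23926886-23952115 (Tbpl2). Capitals mark matches on either strand to the GC box (GGGCGG), the CCAAT box (CCAAT) or the TATA box (TATAAA).
Polr2h, chr16:20717576-20717825 (+): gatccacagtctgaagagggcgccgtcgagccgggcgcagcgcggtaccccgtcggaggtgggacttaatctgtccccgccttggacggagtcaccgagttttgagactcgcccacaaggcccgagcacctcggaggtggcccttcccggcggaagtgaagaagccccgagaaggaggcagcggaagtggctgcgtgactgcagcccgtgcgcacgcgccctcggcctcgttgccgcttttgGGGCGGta
Gtf2h5, chr17:6079578-6079827 (+): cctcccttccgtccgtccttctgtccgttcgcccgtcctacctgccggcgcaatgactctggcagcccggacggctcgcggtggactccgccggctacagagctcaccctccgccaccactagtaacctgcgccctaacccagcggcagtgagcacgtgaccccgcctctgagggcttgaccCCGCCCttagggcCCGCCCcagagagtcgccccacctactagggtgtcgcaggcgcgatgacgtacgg
Tbp, chr17:15499638-15499887 (+): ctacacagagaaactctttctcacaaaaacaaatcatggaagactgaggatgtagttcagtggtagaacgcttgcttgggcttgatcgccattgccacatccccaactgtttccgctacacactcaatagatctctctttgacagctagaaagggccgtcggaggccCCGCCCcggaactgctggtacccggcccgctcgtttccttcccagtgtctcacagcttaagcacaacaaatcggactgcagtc
Tbpl2, chr2:24096596-24096845 (-): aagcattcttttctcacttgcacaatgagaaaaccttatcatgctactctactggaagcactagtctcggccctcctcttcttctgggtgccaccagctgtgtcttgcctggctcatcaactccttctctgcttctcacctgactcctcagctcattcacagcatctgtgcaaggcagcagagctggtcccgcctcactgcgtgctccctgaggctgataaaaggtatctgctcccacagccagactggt
The Gtf2h5 window held 2 GC boxes, Polr2h and Tbp held 1 each, and the Tbpl2 window held none of the 3 motifs. Of the 52 listed genes 42 had a sequence in the RefSeq promoter table. Of these 42, 27 (64.3%) held a GC box in at least 1 window of this length, against 33% of 32536 promoters of all kinds of gene. Members were counted per gene over all their start sites, and the promoters singly. A gene with several start sites thus had more chances of a match, and the shares are not strictly alike. A CCAAT box was found for 12 members (28.6%, against 33.8%) and the letters TATAAA for 8 (19%, against 12.3%). Both strands were searched, and no 1 of these motifs contains another. A match is a run of letters and no evidence of binding, and Polr2d had no entry in that table.

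The counts on genes had medians of 395023 per WT and 649899 per KO oocyte, 148473 and 163626 per 2c embryo, and 564009 and 393914 per 8c embryo, so single genes were least precise at 2c. Levels are given either as CPM (counts scaled to a common library size, with edgeR's TMM factors), which is a share of the library's transcripts, or as counts per 1000 spike-in counts, which follows the amount per oocyte or embryo. Each level is written as the median of its group with the lowest and highest library in parentheses. Amounts are per whole oocyte or embryo, whose number of cells is set by its stage, and not per cell. They cover transcripts captured with an oligo(dT) primer, which binds poly(A) tails, and tail length was not measured. Comparisons of genotypes used TMM and those of stages the spike-in RNA. Both used edgeR's quasi-likelihood test over all 16511 genes, and a gene is said to have risen, fallen or been called only at a Benjamini-Hochberg adjusted p under 0.05. The Plag1 transcript itself was lower in KO than in WT oocytes (log2 fold change -5.64), but higher in the 2c libraries labelled matPlag1KO than in WT (5.59), where the father's allele can be read and the transcript does not check the label. All 8 oocyte markers (Zp1, Zp2, Zp3, Gdf9, Bmp15, Mos, Oosp1 and Nlrp5) were detected in every group. Of 8 markers of the 2-cell embryo, Zscan4f, Tcstv1 and Tcstv3 had no count in any library. The 8 markers of cumulus cells summed to at most 35.3 CPM in any library. Of 4 sperm markers, oocytes held Prm2 alone, at up to 105 CPM, and embryos at most 33.8 CPM in sum.

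Taken as a sum over the 51 genes, the transcripts of the machinery were lower in amount in the 2c embryo than in the oocyte and higher again at 8c, while their share of all transcripts moved less. The summed level was 291 (104 to 1274) counts per 1000 spike-in counts in WT oocytes, 148 (99.7 to 207) in WT 2c embryos and 298 (180.2 to 349) in WT 8c embryos. The same sums in the KO line were 466 (280.5 to 950.3), 130.3 (71.6 to 169) and 265 (203 to 543). As a share, the medians were 6616, 7749 and 7815 CPM in WT, and 6691, 5591 and 8193 CPM in the KO line.

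The roles moved in different directions within that total. The 12 Pol II subunits together went in share from a median of 1252 CPM in WT oocytes to 3369.7 in WT 2c and 4114 in WT 8c embryos, and the lowest 2c embryo (2443) lay above the highest oocyte (1889.7). The 11 TAFs went the other way, with medians of 2261, 1932 and 911 CPM. The 7 genes of the TFIIH core had medians of 237, 445 and 1052 CPM, and all 15 WT 8c embryos lay above the highest 2c embryo. TFIIA, with 2 genes, had medians of 376, 273 and 54.8 CPM. These sums are descriptions with no test, and the genes with the most counts weigh most in them.

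**Figure D1:**
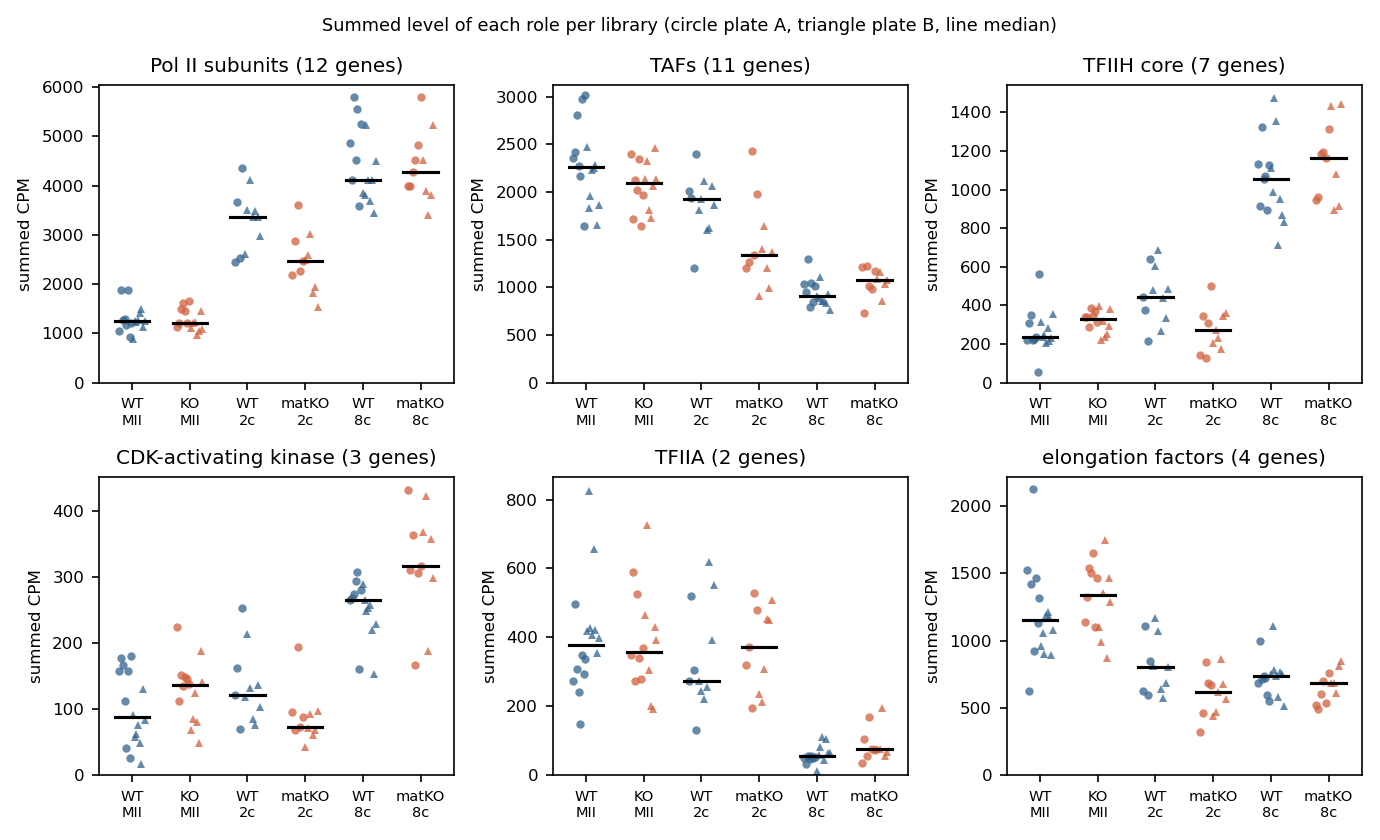
Summed CPM of the genes of 6 roles (y axis, from 0) in each kept library of the 6 groups (x axis), WT in blue and the KO line in orange, circles for plate A and triangles for plate B, with the group median as a line. The Pol II subunits and the TFIIH core reach their highest median at 8c, whereas the TAFs and TFIIA have their lowest median there.

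The question of the stage comparisons is how the oocyte's supply of this machinery gives way to the embryo's own. From MII to 2c in WT, 26 of 51 members fell and 4 rose, where 51.3% of all genes tested fell and 14.1% rose, so the share that fell was near the background. The members' median log2 fold change was -0.98 against -1.46 over all genes. Between KO oocytes and matPlag1KO 2c embryos, the KO line, 37 fell and 2 rose (background 50.3% and 13.5%), with a median of -1.72 against -1.42. When library sizes were scaled by TMM, which measures share rather than amount, 23 rose and 10 fell in WT (background 27.5% and 23.1%), and 13 rose and 15 fell in the KO line (background 29.1% and 19.3%). Within plate A alone 25 members fell and 2 rose in WT, and within plate B 15 fell and 8 rose. The KO line had 33 that fell within either plate. The share of all genes called within a plate was not counted.

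From 2c to 8c the balance turned. In WT 20 members rose and 6 fell (background 31.9% and 16.2%), with a median log2 fold change of 0.74 against 0.53 over all genes. The KO line had 27 that rose and 5 that fell (background 29.1% and 19.5%), with a median of 1.02 against 0.30. With TMM the counts were 11 higher and 15 lower in WT (background 21% and 28.9%), and 13 higher and 8 lower in the KO line (background 21.2% and 30.3%). Within plate A alone 10 rose and 3 fell in either genotype. Plate B alone gave 16 that rose and 6 that fell in WT, and 27 and 4 in the KO line. These counts within a plate have no share over all genes beside them.

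**Figure D2:**
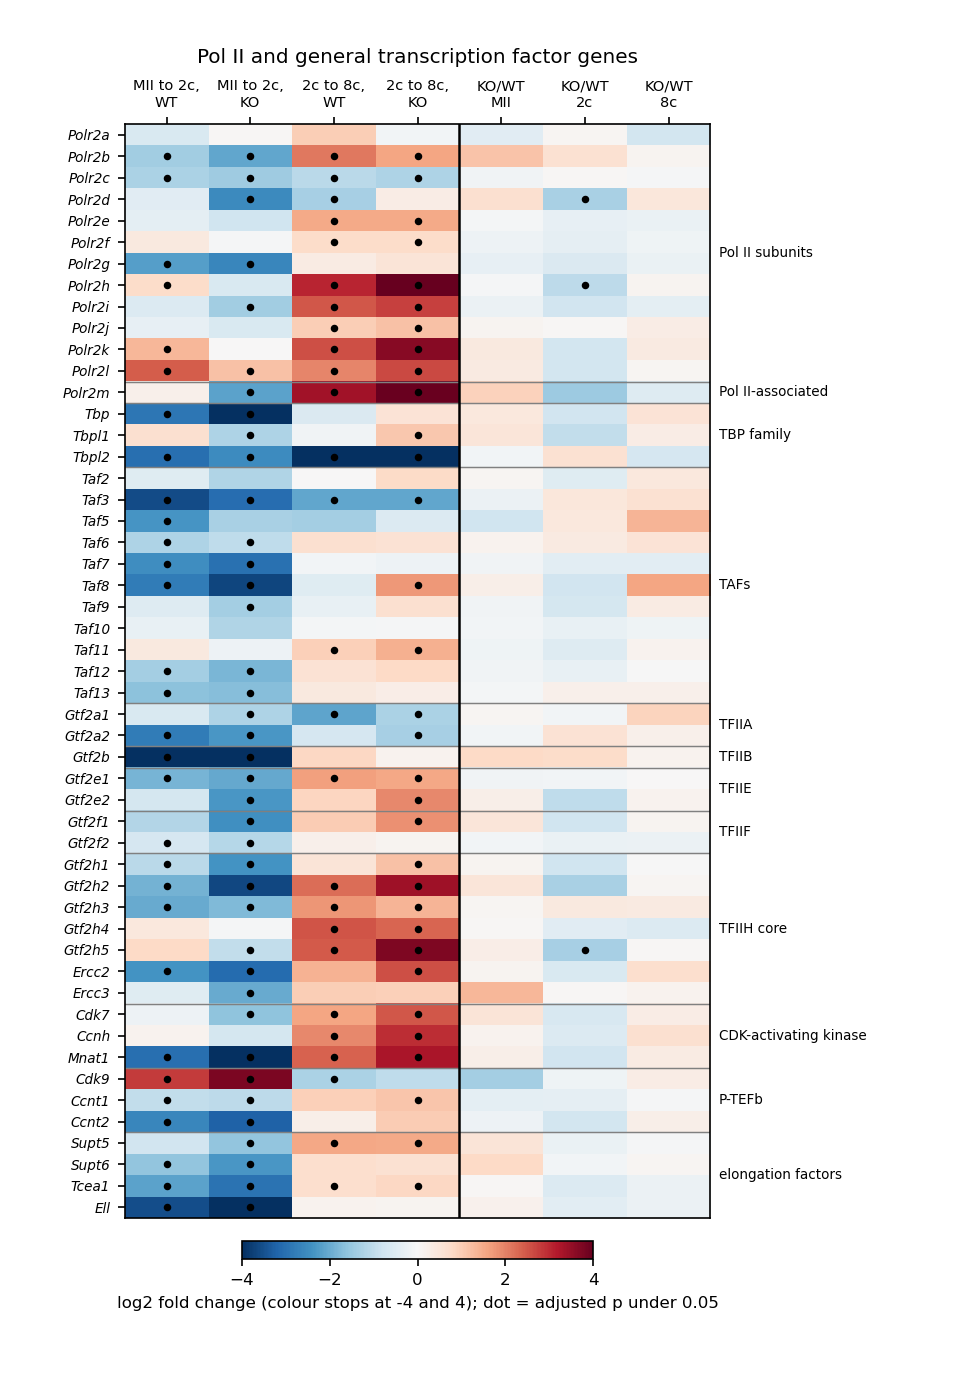
Log2 fold changes (colour, red higher and blue lower, stopping at −4 and 4) of the 51 genes (rows, by role) in 4 stage comparisons on the spike-in scale and 3 genotype comparisons on the TMM scale (columns), with a dot for an adjusted p under 0.05. Most dots stand in the stage columns, and the genotype columns hold 3, for Polr2d, Polr2h and Gtf2h5 at 2c.

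From MII to 2c in WT 3 of 12 Pol II subunits rose and 3 fell (background 14.1% and 51.3%). From 2c to 8c 8 rose and 2 fell (background 31.9% and 16.2%). With TMM the first step had 9 that rose and 1 that fell (background 27.5% and 23.1%). Those that rose on the spike-in scale, Polr2h, Polr2k and Polr2l, encode small subunits shared with the other nuclear RNA polymerases, and the other shared subunits, Polr2e and Polr2f, were not called at that step (-0.38 and 0.39). Polr2l, which encodes the shared subunit RPB10, had 2.36 (0.334 to 9.83) counts per 1000 spike-in counts in WT oocytes, 17.3 (11.3 to 26) in WT 2c embryos and 64.2 (42.2 to 108) in WT 8c embryos. These 3 ranges did not overlap in WT, and the log2 fold changes were 2.42 (SE 0.31) and 1.96 (SE 0.33). They were 1.17 (SE 0.32) and 2.63 (SE 0.35) in the KO line, all 4 called in edgeR (highest adjusted p = 0.00093). Polr2k, for the shared subunit RPB12, rose by 1.33 on the log2 scale from MII to 2c in WT (SE 0.47, edgeR adjusted p = 0.0112) and by 2.58 from 2c to 8c (SE 0.49). Its first step in the KO line was 0.02 (SE 0.48) and was not called, and its second was a rise of 3.64 (SE 0.53).

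Polr2a encodes the largest, catalytic subunit, whose tail is phosphorylated during the transcription cycle. It had 0.536 (0 to 9.1) counts per 1000 spike-in counts in WT oocytes, 0.837 (0 to 2.54) in WT 2c and 1.37 (0.472 to 4.4) in WT 8c embryos, and these ranges overlapped. None of its stage or genotype comparisons was called on these scales, although with TMM it rose from MII to 2c in both genotypes (1.41 in WT and 1.95 in the KO line). Polr2b, for the second largest subunit, fell from MII to 2c (-1.38 in WT and -2.08 in the KO line) and rose from 2c to 8c (2.11 and 1.58). Its fall in WT had the opposite sign within plate B (0.64, against -2.48 in plate A) and with TMM (0.34). Polr2c, for the assembly subunit RPB3, was the subunit that fell at both steps in both genotypes: 15.9 (10.8 to 50.1) counts per 1000 spike-in counts in WT oocytes, 7.96 (5.02 to 11) at 2c and 2.85 (1.46 to 9.59) at 8c. Its log2 fold changes in WT were -1.28 (SE 0.29) and -1.07 (SE 0.28), but the first step with TMM was 0.14 and was not called. Polr2b is named after its values were seen.

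Polr2m, for the Pol II-associated protein Gdown1, was hardly detected before 8c, with 8 counts over the 16 WT oocytes and 6 over the 11 WT 2c embryos, then 122 over the 15 WT 8c embryos. The KO groups had 18, 2 and 49 counts. Scaled to the spike-in RNA, the pooled level of WT 8c embryos was 12.3 times that of WT 2c embryos (95% counting interval 5.49 to 34.2), and the corresponding ratio in the KO line was 25 (6.57 to 212). Both rises were called in edgeR (highest adjusted p = 5.67e-05).

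The 3 genes of the TBP family took different courses. Tbp, the universal TATA-binding protein, had 13 (0.668 to 115) counts per 1000 spike-in counts in WT oocytes, 2.68 (1.15 to 9.9) in WT 2c embryos and 2.4 (0.472 to 4.38) in WT 8c embryos. The oocytes spread widely and overlapped the embryos. Tbp fell by 7.38-fold from MII to 2c in WT (log2 fold change -2.88, SE 0.56, edgeR adjusted p = 5.79e-06), and the log2 change was -3.32 within plate A and -1.23 within plate B. With TMM it was -0.93, and with DESeq2 size factors -0.85, which was not called (edgeR adjusted p = 0.0648). The KO oocytes had 25.6 (6.89 to 105) and the matPlag1KO 2c embryos 2.5 (0.429 to 3.93), with no overlap, and the log2 fold change was -4.05 (SE 0.60). Neither genotype showed a called change of Tbp from 2c to 8c (-0.58 and 0.55), though with TMM the WT value was -1.51 and was called.

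Tbpl2, the oocyte relative of TBP, was almost gone by 8c. It had 2.47 (1.09 to 7.75) counts per 1000 spike-in counts in WT oocytes and 0.282 (0 to 0.923) in WT 2c embryos, 2 ranges with no overlap, and 3.67 (2.62 to 5.12) and 0.43 (0.119 to 1.8) in the KO line, again with none. The log2 fold changes from MII to 2c were -3.02 (SE 0.46) and -2.51 (SE 0.44). With TMM they were -1.63 and -0.91, and with DESeq2 size factors the value in the KO line, -0.63, was not called (edgeR adjusted p = 0.151). Over the 15 WT 8c embryos there was 1 count, in 1 embryo, against 36 over the 11 WT 2c embryos, a ratio of 59.5 on the spike-in scale (95% counting interval from 10.0 up to 2415). Over the 11 matPlag1KO 8c embryos there was no count against 67 at 2c, which makes the 2c level at least 21.9-fold higher when the 8c group is set at a floor of 3 counts. Both falls were called in edgeR (highest adjusted p = 3.52e-09).

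Tbpl1, for the TBP-like factor TRF2, kept a steadier level, at 0.879 (0.45 to 2.06), 1.05 (0.889 to 2.65) and 0.933 (0.324 to 4.01) counts per 1000 spike-in counts in WT at the 3 stages, and no step was called in WT on this scale, although with TMM it rose at the first step (1.95) and fell at the second (-1.02). The KO line differed in its calls: it fell from 1.86 (0.766 to 3.66) in oocytes to 0.714 (0.294 to 2.85) at 2c (log2 fold change -1.23, SE 0.38) and rose to 1.61 (0.306 to 5.12) at 8c (1.07, SE 0.40). With TMM the first of these steps had the opposite sign, 0.50, and neither was called. The gene overlaps Slc2a12 on the other strand and the microRNA gene Mir7663 on its own, and the strand used in counting is not stated, so reads of these genes cannot be separated.

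**Figure D3:**
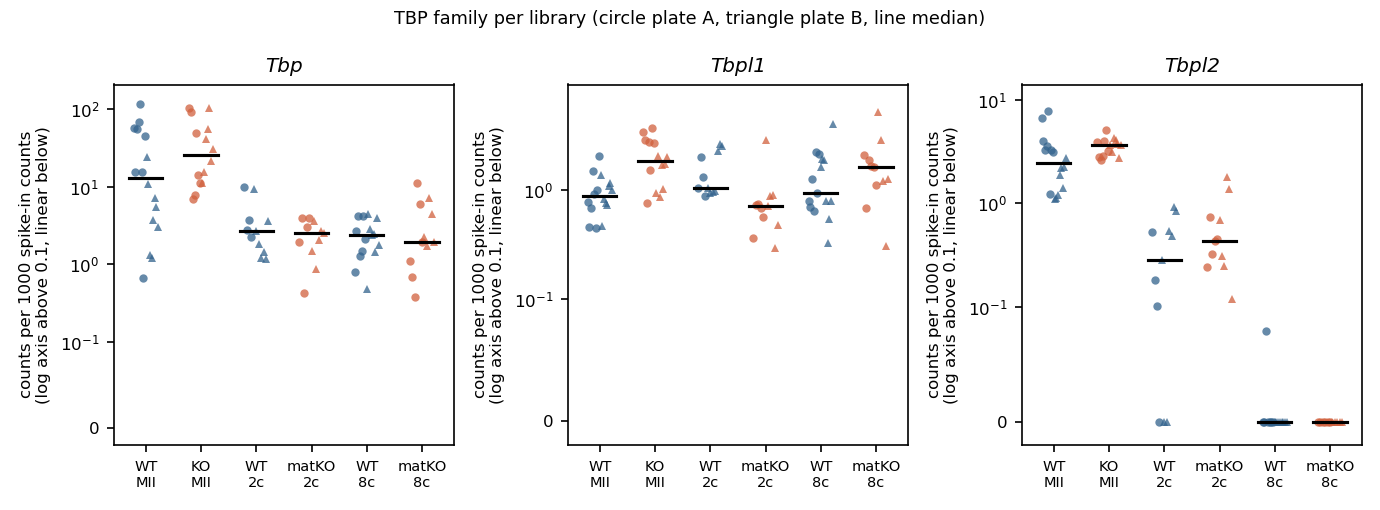
Counts per 1000 spike-in counts (y axis, log above 0.1 and linear below) of Tbp, Tbpl1 and Tbpl2 in each kept library of the 6 groups (x axis), WT in blue and the KO line in orange, circles for plate A and triangles for plate B, with the group median as a line. Tbpl2 has a count in 1 of 15 WT and in none of 11 matPlag1KO 8c embryos, whereas Tbp and Tbpl1 are detected in every one of them.

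Of the 11 TAFs, which complete TFIID around TBP, 7 fell from MII to 2c in either genotype and none rose. Of all genes 51.3% fell and 14.1% rose in WT, and 50.3% and 13.5% in the KO line. The median log2 fold change of the TAFs was -1.36 in WT and -1.37 in the KO line, near the -1.46 and -1.42 of all genes. With TMM, 3 rose and 2 fell in WT at this step (background 27.5% and 23.1%). In the KO line 2 rose and 3 fell (background 29.1% and 19.3%). From 2c to 8c 1 TAF rose and 1 fell in WT (background 31.9% and 16.2%), against 2 and 1 in the KO line (background 29.1% and 19.5%). With TMM none rose and 5 fell in WT (background 21% and 28.9%), against 0 and 2 in the KO line (background 21.2% and 30.3%). Taf3, whose protein reads a methylated histone mark at active promoters, fell at both steps, from 19.4 (8.56 to 183) counts per 1000 spike-in counts in WT oocytes to 2.63 (1.38 to 3.94) at 2c and 0.40 (0.080 to 2.2) at 8c. The oocytes did not overlap the 2c embryos, whereas the 2c and 8c ranges did. Its log2 fold changes were -3.59 (SE 0.47) and -2.07 (SE 0.43) in WT and -3.05 (SE 0.46) and -2.07 (SE 0.48) in the KO line, all called in edgeR and with TMM as well. Taf11, a histone-fold subunit, was the TAF that rose from 2c to 8c in both genotypes (0.95 and 1.42), though with TMM neither was called, and it is named after its values were seen. Of the members with the highest and lowest CPM at WT 2c, Taf9 had 776 (318 to 1137) CPM there and was not called at any WT step on the spike-in scale, and Taf5 had 4.48 (0 to 15.6) CPM, with only 11 counts over the group. Taf9 overlaps Ak6 on the same strand. Taf4, listed apart from the members, fell at both steps in both genotypes (log2 fold changes from -1.71 to -0.94), but with TMM its first step was 0.30 in WT and 0.45 in the KO line, neither called.

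TFIIB, a single protein encoded by Gtf2b that bridges TBP and the polymerase, had the largest fall of any member from MII to 2c in both genotypes. It went from 14.2 (3.67 to 33.9) counts per 1000 spike-in counts in WT oocytes to 0.597 (0.111 to 1.73) in WT 2c embryos, and from 25.8 (8.26 to 221) to 1.02 (0.431 to 3.03) in the KO line. In both genotypes every oocyte lay above every 2c embryo. The fall was 23.7-fold in WT (log2 fold change -4.57, SE 0.45) and 34.6-fold in the KO line (-5.11, SE 0.46), held with TMM (-3.18 and -3.25) and within each plate, and was not followed by a called change to 8c. The large subunit of TFIIA, encoded by Gtf2a1, fell at the second step in both genotypes (-2.12 in WT, SE 0.41, and -1.26 in the KO line, SE 0.44). At the first step it was not called in WT (-0.62) and fell in the KO line (-1.23, but 0.47 and not called with TMM). In WT it had 3.85 (1.33 to 13.1) counts per 1000 spike-in counts at 2c and 0.938 (0.189 to 2.88) at 8c. Gtf2a2, for the small subunit, fell from MII to 2c (-2.80 in WT and -2.33 in the KO line), and is named after its values were seen.

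TFIIE and TFIIF, which join with the polymerase, have 2 genes each. From MII to 2c 1 of each pair fell in WT and all 4 fell in the KO line, where 51.3% and 50.3% of all genes fell. Gtf2e1, for the large subunit of TFIIE, fell and then rose in both genotypes: -1.86 (SE 0.53) and 1.63 (SE 0.53) in WT, and -2.05 and 1.55 in the KO line. With TMM none of these 4 changes was called. Gtf2f2, for the small subunit of TFIIF, fell by 1.59-fold in WT and 2.19-fold in the KO line from MII to 2c on the spike-in scale, while with TMM its WT value was 0.73, a rise.

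The TFIIH core, which holds the helicases Ercc2 and Ercc3 and acts in promoter opening and in DNA repair, has 7 genes. On the spike-in scale 4 fell in WT and 6 in the KO line from MII to 2c, where 51.3% and 50.3% of all genes fell. With TMM 3 rose and none fell in WT at this step (background 27.5% and 23.1%), and 2 rose and 2 fell in the KO line (background 29.1% and 19.3%). From 2c to 8c 4 rose in WT (background 31.9% higher and 16.2% lower) and 6 in the KO line (background 29.1% and 19.5%), and none fell. With TMM 4 and 5 rose, where 21% and 21.2% of all genes rose. Gtf2h2 had 0.606 (0 to 5.23) counts per 1000 spike-in counts in WT oocytes, 0.333 (0 to 0.638) at 2c and 1.27 (0.455 to 3.71) at 8c, with overlapping ranges and log2 fold changes of -1.88 (SE 0.54) and 2.24 (SE 0.55). Gtf2h4, for a subunit that regulates the Ercc3 helicase, rose from 0.351 (0 to 0.778) at WT 2c to 2.01 (0.518 to 3.33) at WT 8c (log2 fold change 2.51, SE 0.55), and by 2.32 (SE 0.57) in the KO line. Within plate A alone the WT rise of Gtf2h4 was 1.83 and was not called.

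The CDK-activating kinase, the part of TFIIH that phosphorylates the Pol II tail, consists of Cdk7, cyclin H (Ccnh) and the assembly factor Mnat1. All 3 genes rose from 2c to 8c in both genotypes, where 31.9% of all genes rose in WT and 29.1% in the KO line. With TMM all 3 rose in the KO line (background 21.2%), but in WT Mnat1 alone (1.46, background 21%). There Cdk7 was at 0.71 (edgeR adjusted p = 0.0525) and Ccnh at 1.05 (edgeR adjusted p = 0.0557). Mnat1 was the one that had also fallen in WT before: it went from 3.2 (0.109 to 6.98) counts per 1000 spike-in counts in WT oocytes to 0.376 (0.108 to 0.729) at 2c and 2.21 (1.51 to 3.24) at 8c, and every 8c embryo lay above every 2c embryo. Its log2 fold changes were -3.03 (SE 0.42) and 2.37 (SE 0.41) in WT and -4.16 (SE 0.45) and 3.27 (SE 0.45) in the KO line. Cdk7 had -0.21 in WT (not called) and fell in the KO line (-1.61, but 0.30 with TMM), and the test of that difference between the genotypes did not pass (edgeR adjusted p = 0.143). Ccnh had 8.96 (4.32 to 35.4) CPM in WT 2c embryos and rose to 8c by 1.93 in WT and 2.96 in the KO line.

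P-TEFb, which pairs Cdk9 with cyclin T, held the gene that rose and then fell in WT. Cdk9 had 0.106 (0 to 0.728) counts per 1000 spike-in counts in WT oocytes, 1.32 (0.647 to 2.15) in WT 2c embryos and 0.476 (0.0792 to 1.41) in WT 8c embryos, and in the KO line 0.0432 (0 to 0.344), 1.25 (0.723 to 2.58) and 0.592 (0 to 1.49). Every 2c embryo lay above every oocyte in the KO line, whereas the WT ranges overlapped. Cdk9 rose 7.01-fold from MII to 2c in WT (log2 fold change 2.81, SE 0.50, edgeR adjusted p = 1.14e-06) and 13.7-fold in the KO line (3.78, SE 0.56, edgeR adjusted p = 1.35e-08). It then fell in WT (-1.25, edgeR adjusted p = 0.0237), whereas the value in the KO line, -1.01, was not called (edgeR adjusted p = 0.097), and their difference was not called either (edgeR adjusted p = 0.782). Its partners moved the other way at the first step: Ccnt1 fell by 1.98-fold and Ccnt2 by 6.15-fold in WT, although Ccnt1 rose with TMM (0.93) and had 0.38 within plate B. Ccnt2 is named after its values were seen.

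Of the 4 elongation factors, 3 fell from MII to 2c in WT and all 4 in the KO line, where 51.3% and 50.3% of all genes fell. From 2c to 8c 2 rose in either, where 31.9% of all genes rose in WT and 29.1% in the KO line. With TMM 1 rose and 2 fell in WT at the first step (background 27.5% and 23.1%). In the KO line none rose and 2 fell (background 29.1% and 19.3%). At the second step none was called in WT (background 21% and 28.9%) or in the KO line (background 21.2% and 30.3%). Ell, for a factor that suppresses pausing of the polymerase, went from 5.76 (0.364 to 99.6) counts per 1000 spike-in counts in WT oocytes to 1.31 (0.359 to 4.07) at 2c (log2 fold change -3.54, SE 0.55), and changed by -4.02 in the KO line (SE 0.57). The WT ranges overlapped, and within plate A and plate B the WT changes were -4.61 and -1.63. Tcea1, for TFIIS, which rescues stalled polymerase, fell by 4.38-fold in WT with no overlap between 35.4 (19.1 to 103) in oocytes and 10.7 (5.76 to 15.5) at 2c. It rose by 1.59-fold from 2c to 8c on the spike-in scale, a rise that was not called with TMM (-0.25).

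The members' changes in the KO line can be set beside those in WT, which rest on other oocytes and embryos. From MII to 2c 25 members fell and 2 rose in both genotypes, and none was called in opposite directions. The fall was called in the KO line but not in WT for 12 members and in WT but not the KO line for 1, and the log2 fold change was lower in the KO line for 43 of 51. From 2c to 8c 20 rose and 4 fell in both, none was opposite, and 7 rose by a call in the KO line alone. None of these joint counts was made over all genes, so they have no background. Whether a gene's step differed between the genotypes is given by the test of the difference below, which passed for 2 genes at the first step (Polr2d and Gtf2h5) and 1 at the second (Polr2d) with TMM, and for 2 (Polr2d and Tbpl1) and 0 with spike-in scaling. The spike-in scaling that sets these counts also carries the yield of each library: the KO oocytes had more gene counts per spike-in count than WT oocytes (log2 ratio 6.17 ± 0.57 and 5.59 ± 0.88, SD, n = 14 and 16), and its part in the lower values was not tested.

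**Figure D4:**
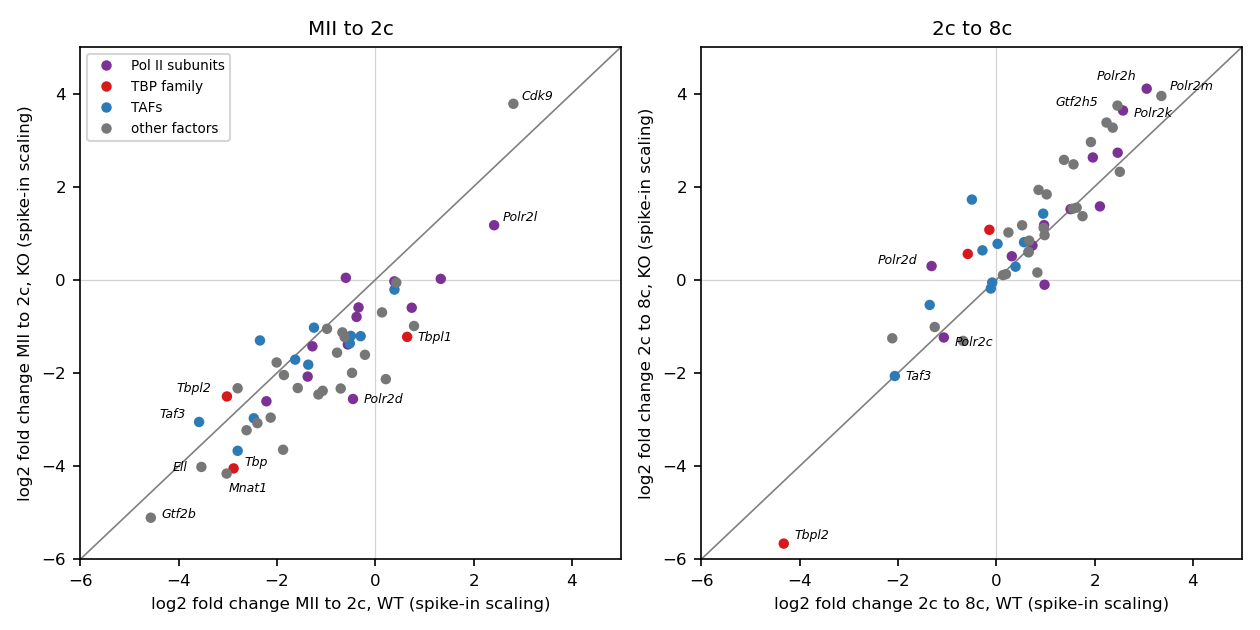
Log2 fold change of each of the 51 members in the KO line (y axis) against WT (x axis) from MII to 2c (left) and from 2c to 8c (right), both on the spike-in scale, coloured by role, with the line of equal change. From MII to 2c 43 of 51 members lie below the line, a count that was not made over all genes. No member was called in opposite directions in the 2 genotypes at either step.

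The genotype comparison asks which members differ when the mother lacked Plag1. In MII oocytes no member was called in edgeR (background 0.309% of genes higher and 0.472% lower in KO), and at an unadjusted p under 0.05 there were 5 higher and 1 lower (background 5.45% and 4.78%). DESeq2 called none either, whereas plate A alone called 2 and plate B alone 4, all higher in KO. A fit with same-numbered wells as a block, described in the last section, called 9, 8 higher and 1 lower in KO. The labels do not say that such wells are pairs. The share of all genes called was counted neither in that fit nor within a plate. The lowest adjusted p in edgeR was that of Ercc3 (log2 fold change 1.32, SE 0.37, adjusted p = 0.0638), and with spike-in scaling Ercc3 and Gtf2b were called higher in KO (1.73 and 1.40, background 0.587% higher and 0.242% lower). Both are named after their values were seen. At 8c again no member was called in edgeR (background 1.21% higher and 0.527% lower) or in DESeq2, and 2 were higher and none lower at an unadjusted p under 0.05 (background 8.21% and 6.1%).

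At 2c 3 members were lower in matPlag1KO than in WT embryos and none was higher, where 2.62% of all genes were lower and 2.3% higher. They were Polr2d, for the subunit RPB4 that with RPB7 forms the stalk of the polymerase, Polr2h, for the subunit RPB8 shared by all 3 nuclear polymerases, and Gtf2h5, for the small TFIIH subunit TTDA that stabilises the complex. In all, 38 of 51 members had a negative log2 fold change, with a median of -0.43 against 0.12 over all genes, and at an unadjusted p under 0.05 10 were lower and 1 higher (background 9.07% and 11.4%). The sign of the difference was the same in both plates for 37 members. Neither this count nor that of negative values was made over all genes. Members with positive values included Gtf2b (0.72, SE 0.38) and Tbpl2 (0.60, SE 0.43), neither called.

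Gtf2h5 had 224 (103 to 472) CPM in the 11 WT and 79.7 (24.7 to 169) CPM in the 11 matPlag1KO 2c embryos. All 11 matPlag1KO embryos lay below the WT median and 6 below every WT embryo. The level was 2.52-fold lower (log2 fold change -1.33, SE 0.34, edgeR adjusted p = 0.011). WT and KO oocytes had 28.3 (3.66 to 123) and 53.4 (8.5 to 92) CPM, and WT and matPlag1KO 8c embryos 719 (415 to 1059) and 801 (452 to 915) CPM, with overlap and no call at either stage. The promoter with 2 GC boxes shown above belongs to this gene, which rose to 8c by 2.47 in WT (SE 0.41) and by 3.74 in the KO line (SE 0.45) on the spike-in log2 scale.

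Polr2d had 279 (100.2 to 478) CPM in WT and 91 (47.8 to 281) CPM in matPlag1KO 2c embryos. All but 1 of the 11 matPlag1KO embryos lay below the WT median, and 6 below every WT embryo. It was 2.45-fold lower (log2 fold change -1.29, SE 0.33, edgeR adjusted p = 0.0126). At MII the order was the reverse without a call, with 99.7 (11.3 to 314) CPM in WT and 194 (63.5 to 339.8) CPM in KO oocytes (0.65, SE 0.27). At 8c the levels were 59.7 (29 to 90.4) and 79.2 (43.9 to 146) CPM. It fell from 2c to 8c in WT (-1.32, SE 0.37) and from MII to 2c in the KO line (-2.56, SE 0.41), on the spike-in log2 scale. With TMM its step from MII to 2c was a rise in WT (1.21) and a fall in the KO line (-0.73).

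Polr2h had 83.2 (18.2 to 129) CPM in WT and 33.5 (0 to 81.8) CPM in matPlag1KO 2c embryos, and all 11 of the latter lay below the WT median. It was 2.07-fold lower (log2 fold change -1.05, SE 0.33, edgeR adjusted p = 0.0457), the weakest of the 3 calls. In oocytes it had 16.9 (6.55 to 34.5) CPM in WT and 15.5 (6.7 to 31.7) CPM in KO, and at 8c 374 (191 to 493) and 399 (259.9 to 502) CPM, with overlap and no call. On the spike-in log2 scale it rose from MII to 2c in WT (0.74, SE 0.33) and had -0.60 (SE 0.35, not called) in the KO line, and then rose by 3.06 and 4.10.

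**Figure D5:**
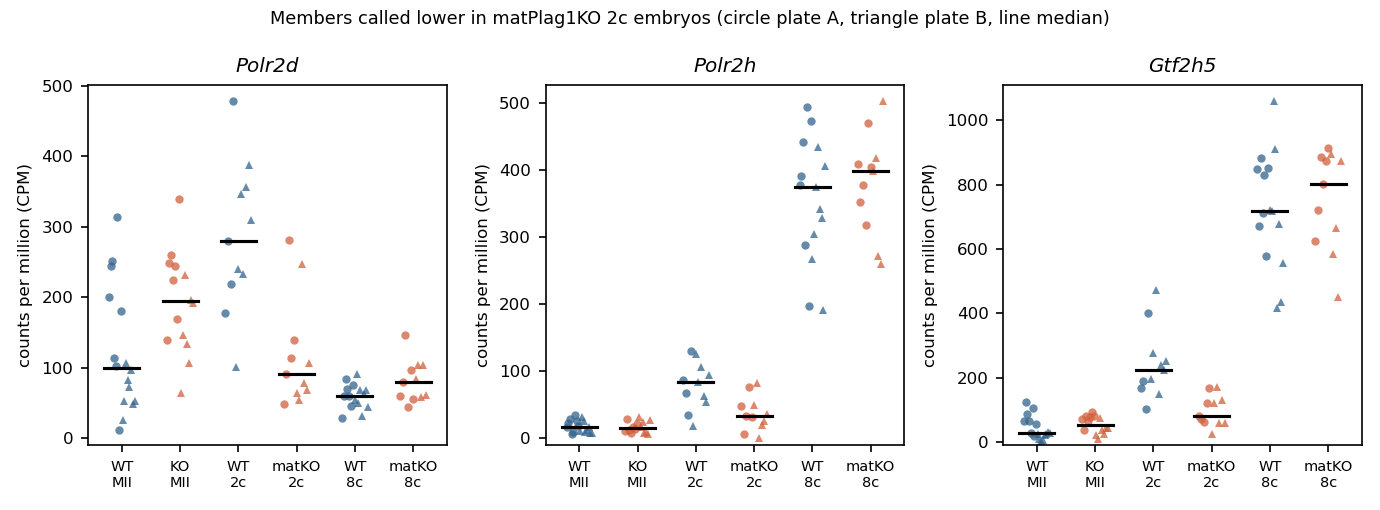
CPM (y axis) of Polr2d, Polr2h and Gtf2h5 in each kept library of the 6 groups (x axis), WT in blue and the KO line in orange, circles for plate A and triangles for plate B, with the group median as a line. At 2c the matPlag1KO medians (91, 33.5 and 79.7 CPM) lie below the WT medians (279, 83.2 and 224 CPM) and the ranges overlap, whereas Polr2h and Gtf2h5 are highest at 8c in both genotypes.

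All 3 differences had the same sign in both plates, from -1.10 to -1.19 on the log2 scale in plate A and from -1.12 to -1.53 in plate B, but none was called in plate A alone, which had 4 WT and 5 matPlag1KO embryos, and Polr2h was not called in plate B alone either (edgeR adjusted p = 0.158). Polr2h also lost its call with DESeq2 size factors (-0.85, edgeR adjusted p = 0.103) and with all libraries kept (-0.53, edgeR adjusted p = 0.398), as Polr2d did with all libraries kept (-0.99, edgeR adjusted p = 0.0661). With spike-in totals as library sizes the values were similar (-1.20, -0.91 and -1.19), and none was called (edgeR adjusted p = 0.092, 0.16 and 0.102), where 0.569% of all genes were lower and 1.16% higher. The 2c embryos of the genotypes also differed in the sums of stage markers. The 8 markers of the 8-cell embryo summed to 5004 CPM (3223 to 7101) in WT, where Krt8 had no count. In matPlag1KO, where all 8 were detected, they summed to 2642 CPM (1443 to 6530.1). The same list had medians of 6352 CPM in WT and 5399 CPM in KO oocytes, so its sum does not order the stages. The 8 oocyte markers summed to 3372 CPM (1631 to 6579.6) and 4925 CPM (2393 to 8693), and the 5 detected of 8 markers of the 2-cell embryo to 200.5 CPM (83.3 to 1082) and 470.3 CPM (199 to 712). The part of these marker differences in the lower members was not tested.

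Other members at 2c that are central to the machinery were not called apart between the genotypes. These were Tbp (-0.76, SE 0.44), Polr2a (0.08, SE 0.44), Polr2l (-0.73, SE 0.29), Cdk7 (-0.64, SE 0.35) and Cdk9 (-0.16, SE 0.44). Taf9 and Tbpl1 came next to the called members, at -0.69 (SE 0.25, edgeR adjusted p = 0.0806) and -0.98 (SE 0.38, edgeR adjusted p = 0.106).

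Whether the genotype difference changed with stage was tested directly. Against MII, the log2 difference at 2c was more negative for Polr2d (change -1.94, SE 0.43, edgeR adjusted p = 0.00375) and for Gtf2h5 (-1.61, SE 0.44, edgeR adjusted p = 0.0235), where 1.68% of all genes had a more negative and 1.62% a more positive difference. Against 8c, it was more negative for Polr2d alone (-1.73, SE 0.45, edgeR adjusted p = 0.0226), where 1.13% of all genes were more negative and 1.17% more positive. Polr2h passed in neither (edgeR adjusted p = 0.199 and 0.115). With spike-in scaling Polr2d still passed against MII (-2.11; background 1.22% more negative and 0.672% more positive) but not against 8c (background 0.188% and 0.369%), Gtf2h5 did not pass (edgeR adjusted p = 0.0613), and Tbpl1 passed against MII (-1.87, edgeR adjusted p = 0.0377; -1.45 and 0.0785 with TMM). These contrasts share the 2c embryos.

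Beyond the members, 48 other genes that act on Pol II (further TAFs, regulators of P-TEFb, the pausing factor NELF, the PAF1 complex, assembly and tail-binding factors) were all in the table, and 47 were tested. From MII to 2c 10 of them rose and 23 fell in WT (background 14.1% and 51.3%), against 6 and 28 in the KO line (background 13.5% and 50.3%). From 2c to 8c 11 rose and 4 fell in WT (background 31.9% and 16.2%), against 12 and 3 in the KO line (background 29.1% and 19.5%). These counts are on the spike-in scale. With TMM the balance was the opposite. At the first step 21 rose and 8 fell in WT (background 27.5% and 23.1%). In the KO line 18 rose and 10 fell there (background 29.1% and 19.3%). At the second step 4 rose and 13 fell in WT (background 21% and 28.9%). The KO line had 7 that rose and 10 that fell at that step (background 21.2% and 30.3%). Between the genotypes none was called at MII or 8c. At 2c 2 were lower in matPlag1KO and none was higher, where 2.62% of all genes were lower and 2.3% higher. Supt4a, for a subunit of the elongation factor DSIF, had -1.28 (SE 0.33, edgeR adjusted p = 0.0149), and a near-identical copy, Supt4b, may share its reads. Rprd1a, for a protein that binds the Pol II tail, had -1.82 (SE 0.42, edgeR adjusted p = 0.00541).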

How the data were processed

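The authors sequenced the 5′ ends of transcripts from single oocytes and embryos with unique molecular identifiers and ERCC spike-in RNA, mapped the reads to mm9 with TopHat, counted them in UCSC genes with HOMER, and deposited the raw counts of 90 unpooled libraries, with 24422 gene rows and 92 rows of spike-in RNA. Versions and the strand used in counting are not given in the sources used here. The genes of 14 of the 51 members overlap another gene of the table. Groups, plates and wells came from the labels.

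The members and gene lists were chosen with earlier results of these data known. A median log2 CPM below 0 excluded 12 libraries. Testing required that a gene reach 1 CPM in 5 or more of the remaining 78. All 6 groups were fitted in edgeR 4.0.16 (R 4.3.3) with a mean per group, by the quasi-likelihood test with Benjamini-Hochberg adjustment over all 16511 genes. Genotypes were compared on TMM sizes, and stages with the spike-in total as library size. Named members are the TBP family, Polr2a, those called between genotypes, the 4 with the largest rise and fall per stage step in WT called in both genotypes (fewer where fewer were called), and those with the highest and lowest CPM at WT 2c per role. Others are said to be named after their values were seen. Pooled counts have 95% exact binomial intervals, which cover counting error only. Alternatives were the other scaling, DESeq2 size factors, DESeq2 1.42.0, no filter on low counts, all libraries, plate as a term, each plate alone, and the well as a block. Simulated counts had 100 genes changed by 2 and 100 by 3 on the log2 scale, none of them of low mean level. For genotypes at 2c 66 and 91 were recovered, and from MII to 2c in KO 86 and 98. The member differences called at 2c were smaller (log2 fold changes from -1.05 to -1.33), and recovery at that size was not measured. The closest pair of libraries in a group had a chi-square per degree of freedom of 3.54, so no pair agreed within sampling noise.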

Additional observations from a re-analysis of the deposited data

Results flagged for a closer look

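The genotype difference of 2 members depended on the stage by the test of the difference itself. For Polr2d, the log2 difference between matPlag1KO and WT at 2c lay below that between KO and WT oocytes by -1.94 (SE 0.43, edgeR adjusted p = 0.00375; -1.60 in plate A and -2.71 in plate B) and below that at 8c by -1.73 (SE 0.45, edgeR adjusted p = 0.0226). For Gtf2h5 it lay below that in oocytes by -1.61 (SE 0.44, edgeR adjusted p = 0.0235), with -1.29 in plate A and -2.39 in plate B. In WT oocytes the plates had different levels of both genes, with medians of 190.5 CPM in plate A and 62.2 in plate B for Polr2d and of 64.5 and 21.7 for Gtf2h5, and the part of this in the comparison with oocytes was not tested.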

How the results depend on the processing

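Of 73 recounts of the called members under the alternatives, 55 stayed within 1.5 times the number given above, higher and lower calls added up. That total hides the turn of direction that TMM gave to the stage steps, from 4 higher and 26 lower to 23 and 10 from MII to 2c in WT, from 2 and 37 to 13 and 15 in the KO line, and from 20 and 6 to 11 and 15 from 2c to 8c in WT. At MII, where no member was called, spike-in scaling called 2 (Ercc3 and Gtf2b), plate A alone 2 (the same 2 genes) and plate B alone 4 (Polr2b, Polr2d, Supt6 and Tbp), all higher in KO. At 2c, where 3 were called, spike-in scaling and plate A alone called 0, with 10 lower and 1 higher at an unadjusted p under 0.05 in the TMM fit, and keeping all libraries called 1 (Gtf2h5), while DESeq2 called the 3 and Gtf2a2 as higher. For the difference between 2c and MII (2 called), keeping all libraries left 1 (Polr2d) and plate A alone 0. For that between 2c and 8c (1 called), spike-in scaling, all libraries and plate A alone gave 0, plate as a term 2 and DESeq2 3. From 2c to 8c, plate A alone called 13 in WT (26 above), and in the KO line (32 above) TMM and DESeq2 size factors called 21 and plate A alone 13. Of the 47 other Pol II genes, spike-in scaling called 1 at 2c (2 above) and 0 for the difference between 2c and 8c (2 above). The cause of these changes was not tested, and a plate alone held fewer libraries than the full fit. Apart from the other scaling, the share of all genes called under the alternatives was not counted.

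Of 27 called changes of named genes under 216 alternatives, 188 kept direction and call, 26 kept direction and lost the call, and 2 reversed: the fall of Tbpl1 from MII to 2c in the KO line became 0.50 with TMM and 0.82 with DESeq2 size factors. The genotypes share well numbers at MII (14 pairs). Deviations from the group means correlated between same-numbered wells from −0.04 to 0.77 over 10199 genes, with 12 pairs at 0.26 or more and 2 at or under 0.1. Of these 28 oocytes 23 correlated best, among those of the other genotype, with the one in their own well, a hint from the data. The labels give no shared mother or day for a well, and not every pair passed 0.1, so the wells were not taken as pairs. When wells formed a replicate block, with a plate term in the same model, 9 members were called at MII, 8 higher and 1 lower in KO. The 2c embryos, with the lowest depth, limit the precision of every comparison that uses them.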
